A study of Rattus norvegicus with 9 samples.

Results

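Ligand and antagonist genes of the TGF-beta superfamily, 10 in all, were examined across the 3 groups of the series. They are the TGF-beta isoform genes Tgfb1, Tgfb2 and Tgfb3, the bone morphogenetic protein genes Bmp2 and Bmp4, the growth differentiation factor genes Gdf5 and Gdf6, the activin subunit gene Inhba, and the antagonist genes Grem1 (gremlin 1) and Fst (follistatin). They were taken by symbol from the 22324 genes of the deposited count table, where all 10 were found and all 10 passed the filter on low counts. Poly(A) RNA was sequenced from primary rat nucleus pulposus cells, the cells of the gelatinous core of the intervertebral disc, in 9 libraries. The BNPMT group had 3 libraries of doxorubicin-treated, senescent cells that also received an intervention the labels call BNPMT, with no dose or timing given in the labels. The SEN group had 3 libraries of cells made senescent with doxorubicin, a drug that damages DNA, at 200 nM over 24 h with 6 more days in fresh medium. The NC group had 3 libraries and is treated here as the untreated control, which its title and the design text imply, although its samples carry the same doxorubicin protocol. All 3 groups have the genotype WT, and no label says whether libraries came from separate animals or cultures, so p-values reflect only how these libraries varied, and that variation may be technical.

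Most TGF-beta superfamily ligands are secreted dimers that bind pairs of serine/threonine kinase receptors on the cell surface. TGF-beta isoforms and activins signal mainly through SMAD2 and SMAD3. BMPs, GDF5 and GDF6 signal mainly through SMAD1, SMAD5 and SMAD9, and both arms use SMAD4. Gremlin 1 binds and blocks BMP2 and BMP4, and follistatin binds activins very tightly and some BMPs less so. In the disc, TGF-beta and GDF5 are known for promoting matrix production and BMPs for influencing chondrocyte-like differentiation.

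Sequence upstream of the transcription start is shown for 4 genes that between them had the main patterns of the levels given further on. Tgfb3 and Bmp4 were low in SEN libraries, Inhba was high in SEN libraries, and Grem1 was high in BNPMT libraries. Each is the 250 bases before the start of the gene, 5′ to 3′, from RefSeq on build GRCr8, which is not the build named for the counts, and capitals mark motif matches.
Tgfb3, GRCr8 chr6:111456947-111457196, minus strand: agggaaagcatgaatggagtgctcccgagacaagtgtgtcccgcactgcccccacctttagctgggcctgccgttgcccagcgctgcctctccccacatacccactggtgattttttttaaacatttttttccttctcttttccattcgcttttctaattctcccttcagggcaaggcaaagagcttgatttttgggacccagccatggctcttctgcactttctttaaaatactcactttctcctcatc
Bmp4, GRCr8 chr15:22101934-22102183, minus strand: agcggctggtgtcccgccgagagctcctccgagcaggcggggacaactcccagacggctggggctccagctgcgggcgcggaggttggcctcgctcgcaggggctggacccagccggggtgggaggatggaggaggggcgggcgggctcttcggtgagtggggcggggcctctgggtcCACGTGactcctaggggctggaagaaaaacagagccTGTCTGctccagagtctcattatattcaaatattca
Inhba, GRCr8 chr17:53804509-53804758, minus strand: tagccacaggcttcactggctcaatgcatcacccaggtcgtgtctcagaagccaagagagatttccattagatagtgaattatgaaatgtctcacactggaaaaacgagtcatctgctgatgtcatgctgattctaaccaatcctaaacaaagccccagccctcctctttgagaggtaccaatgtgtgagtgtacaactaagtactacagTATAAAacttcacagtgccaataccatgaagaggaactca
Grem1, GRCr8 chr3:120978320-120978569, minus strand: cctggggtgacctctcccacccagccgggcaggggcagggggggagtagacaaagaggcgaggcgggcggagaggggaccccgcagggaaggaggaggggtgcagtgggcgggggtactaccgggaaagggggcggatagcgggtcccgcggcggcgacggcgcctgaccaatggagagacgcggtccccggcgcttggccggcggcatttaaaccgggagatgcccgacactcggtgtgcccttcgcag
Windows of 300 bases, from 250 bases before the start to 50 after it, were matched by gene ID for 6 of the 10 genes, and Bmp2, Gdf5, Gdf6 and Fst were not matched. These windows were searched on both strands for TGANTCA (the AP-1 motif), TGACGTCA (the cyclic AMP response element), GTCTAGAC and CAGACA (SMAD motifs), TATAAA (the TATA box), CACGTG (an E-box) and the consensus NF-kappaB motif. The Inhba window held TATAAA at position -40 and CAGACA at position -2, of which the second runs past the start and lies outside the printed bases. The Bmp4 window held CACGTG at position -72 and, on the minus strand, CAGACA at position -36, which reads TGTCTG in the printed strand. The Tgfb2 window held CACGTG at position -229. No match shared bases with another. None of the 7 motifs was found in the windows of Tgfb1, Tgfb3 or Grem1. Of 33469 rat windows of the same length, 14.2% held TATAAA, 21.1% held CAGACA, 6.42% held CACGTG, 7.33% held TGANTCA, 1.83% held TGACGTCA, 0.197% held GTCTAGAC and 0.111% held the NF-kappaB motif. The G and C content of the windows was 45.7% for Inhba, 47.7% for Tgfb3, 57.7% for Tgfb1, 59% for Tgfb2, 65% for Bmp4 and 70% for Grem1, against a median of 51.7% over all windows.

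Total counts per library ran from 35094282 to 41971877 in BNPMT, from 31206834 to 38391586 in SEN and from 34514440 to 41873790 in NC. CPM and FPKM values are per total count, and FPKM is also per length of the gene. Log2 changes are scaled with TMM factors, which averaged 1.14 in BNPMT, 0.802 in SEN and 1.1 in NC. The scalings part in both comparisons that involve SEN: with total counts alone the median log2 change of all 14956 genes tested was -0.46 in SEN against NC and 0.52 in BNPMT against SEN, compared with -0.01 and 0.02 with TMM. With total counts alone 24.5% of all genes were called higher and 56.9% lower in SEN against NC, and 57.3% were called higher and 25.8% lower in BNPMT against SEN, which are the shares to set beside counts given for that setting. With each library's trend with gene length taken out, these shares were 39.9% higher and 41.6% lower in BNPMT against SEN, and 23.5% higher and 22.6% lower in BNPMT against NC. BNPMT 1 and SEN 1 stood apart from the other libraries of their groups, at a chi-square of 26.5 to 31.6 and of 13.2 to 16.5 per degree of freedom in pairs with them, against 3.41 and 6.54 in the pair of other libraries of each group. Their deviations from the group mean correlated across genes with gene length in opposite directions, with a Spearman's rho of 0.51 in BNPMT 1 and -0.42 in SEN 1. The number of the 10 genes called in each direction was the same without these 2 libraries in all 3 comparisons. Without them, 38.5% of all genes were called higher and 39.8% lower in SEN against NC, and 40.7% and 40.2% in BNPMT against SEN. The shares in BNPMT against NC were 29.6% and 30.6%.

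Nucleus pulposus and notochord markers summed to 2564 to 2787 CPM in BNPMT, 7322 to 7453 CPM in SEN and 5436 to 5704 CPM in NC, with 8 of the 12 markers in the table at 1 CPM or more in each group. Most of each sum was Col2a1, at 1962 CPM in BNPMT, 6492 CPM in SEN and 4571 CPM in NC on average. In the same order, Acan (322, 681 and 587 CPM), Krt8 (2.18, 5.73 and 4.16 CPM) and Cd24 (42.2, 47.2 and 29.9 CPM) were also highest in SEN. So were Krt18, Krt19 and Car12, all under 1 CPM on average. Pax1 (149, 52.7 and 135 CPM), Car3 (129, 79.7 and 175 CPM) and Foxf1 (29.2, 17.2 and 30.6 CPM) were lowest in SEN, and Sox9 (22, 31 and 31.5 CPM) was lowest in BNPMT. The notochord marker Tbxt, the transcription factor brachyury, was near 0, at 0.0429, 0.0464 and 0.0932 CPM on average in BNPMT, SEN and NC. Annulus and fibroblast markers summed to 16992 to 19742 CPM in BNPMT, 37279 to 37666 CPM in SEN and 37935 to 39510 CPM in NC, most of it Col1a1 and Col1a2. In the order BNPMT, SEN and NC, Thy1 (617, 186 and 506 CPM), Pdgfra (222, 106 and 242 CPM) and Mkx (86.9, 58.8 and 96.2 CPM) were lowest in SEN. Scx (64.4, 41.9 and 45.2 CPM) was highest in BNPMT, with SEN and NC ranges that overlapped, and Tnmd (19.4, 94.2 and 39 CPM) was highest in SEN. Smooth muscle markers summed to 2550 to 2801 CPM, 1325 to 1499 CPM and 4459 to 4499 CPM in the same groups. Acta2, Tagln, Myh11 and Cnn1 were lowest in SEN. Des (54.9, 28.4 and 28.4 CPM) was highest in BNPMT, with SEN and NC ranges that overlapped. Macrophage and leukocyte markers summed to 16.4 to 18.4 CPM in BNPMT, 27.2 to 30.4 CPM in SEN and 11.3 to 12.9 CPM in NC, with Adgre1 at 0 in BNPMT and SEN libraries. Its members moved apart: Cd68 averaged 0.527 CPM in BNPMT, 22.6 CPM in SEN and 0.464 CPM in NC, and Cd14 16.6 CPM, 4.04 CPM and 11.4 CPM. Lyz2 (0.0652, 1.55 and 0.236 CPM) and Csf1r (0.0319, 0.403 and 0.0605 CPM) were highest in SEN as Cd68 was. Ptprc was not among the counted genes. Endothelial markers summed to 0.981 to 1.51 CPM in BNPMT, 4.95 to 5.38 CPM in SEN and 1.04 to 1.55 CPM in NC, of which Pecam1 made up 4.04 CPM in SEN. The part of these differences in the results was not tested, and fewer cells of a type cannot be told apart from less RNA per cell.

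The first comparison, SEN against NC, asks how the 10 genes stand in doxorubicin-induced senescence. Bmp2 was 12.4-fold, Inhba 3.08-fold and Fst 1.68-fold higher in SEN, and Gdf5, Tgfb3, Bmp4 and Tgfb2 were lower. Tgfb1 and Grem1 also passed the test as higher with TMM scaling, but were at -0.03 and -0.04 and not called with total counts alone, which gave 3 genes higher and 4 lower. Of the 10 genes, 5 were called higher, 4 lower and 1, Gdf6, was not called (edgeR's quasi-likelihood test, Benjamini-Hochberg adjusted p under 0.05 over all genes), where 76.1% of all genes tested were called, 37.6% higher and 38.5% lower. The CPM ranges of SEN and NC did not overlap for 7 of the 10, where this held for 83.4% of all genes. Both shares thus say little about these 10 genes in particular. Their median log2 change was 0.36, against -0.01 for all genes, and their median absolute log2 change was 1.04, against 0.68 for all genes. The 10 genes were chosen with earlier results of these data known, so this does not test whether they moved more than other genes.

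The second comparison, BNPMT against SEN, asks what the intervention changed in senescent cells. Gdf5, Tgfb3, Bmp4 and Grem1 were higher in BNPMT by 24.2-fold, 2.65-fold, 2.46-fold and 2.63-fold, whereas Bmp2 and Inhba were lower. Counts of calls were 4 higher and 4 lower, with Tgfb1 and Tgfb2 not called, where 80.6% of all genes were called, 40.7% higher and 39.9% lower. The CPM ranges of BNPMT and SEN did not overlap for 9 of the 10, and for 82.5% of all genes. The median log2 change was -0.05, against 0.02 for all genes, and the median absolute log2 change 1.35, against 0.78 for all genes. The limit from the choice of the genes holds here too. Of the 4 genes called lower, Gdf6 and Fst did not keep the call under all alternatives. With total counts alone 7 genes were higher and 2 lower, where 57.3% of all genes were higher and 25.8% lower. With the length trend taken out 4 were higher and 5 lower, and without SEN 3 or without BNPMT 2 only Bmp2 and Inhba were lower. Of all genes, 38.3% were called lower without SEN 3 and 39% without BNPMT 2. This comparison shares the SEN libraries with the first, so opposite signs in both are not independent.

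The third comparison, BNPMT against NC, asks how the treated senescent cells stand beside the control. Grem1 was 3.5-fold and Gdf5 2.09-fold higher in BNPMT, Inhba, Tgfb3 and Tgfb2 were lower, and Bmp4 and Gdf6 were not called. In all, 5 genes were called higher and 3 lower, where 52.8% of all genes were called, 26.3% higher and 26.5% lower. The CPM ranges of BNPMT and NC did not overlap for 7 of the 10, and for 61.7% of all genes. With each library's trend with gene length taken out, 3 genes were higher and 3 lower. The median log2 change was 0.15, against 0.0047 for all genes, and the median absolute log2 change 0.53, against 0.32 for all genes. The choice of the genes limits these medians in the same way.

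**Figure D1:**
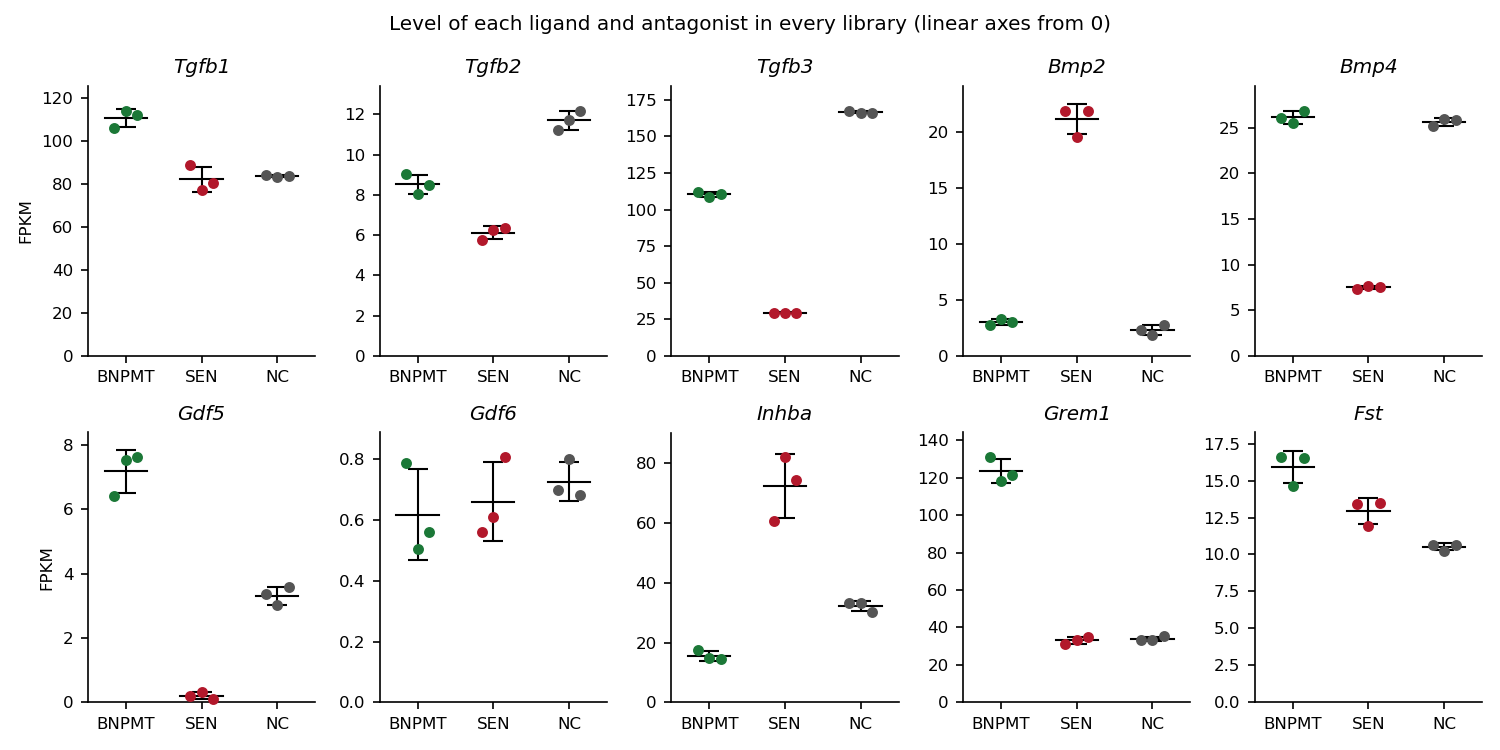
FPKM of each of the 10 genes (y axis, linear, from 0) in each library, grouped as BNPMT, SEN and NC on the x axis; points are libraries, and lines are group means with the SD. SEN libraries of Bmp2 (19.5 to 21.9 FPKM) and Inhba (60.9 to 82.2 FPKM) lie above all others, and SEN libraries of Tgfb3 (29.1 to 29.6 FPKM), Bmp4 and Gdf5 lie below all others.

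Among the TGF-beta isoforms, Tgfb3 moved most. TGF-beta 3 is an isoform with known roles in palate closure and in cartilage differentiation of stem cells in culture. Tgfb3 had 386, 374 and 381 CPM in BNPMT, 102, 100.1 and 102 CPM in SEN and 578, 572 and 573 CPM in NC. The 3 groups did not overlap, and SEN libraries were the lowest. Tgfb3 fell by 2.05 on the log2 scale in SEN against NC (SE 0.05, adjusted p = 1.36e-13) with TMM, and CPM per total count was 5.67 times less. It was 1.41 ± 0.05 higher in BNPMT than in SEN (log2, SE; adjusted p = 4.66e-12) and fell by 0.64 in BNPMT against NC (SE 0.04, adjusted p = 2.06e-07), so that BNPMT lay between the other groups.

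Tgfb1 encodes the most widely expressed isoform, which drives fibrosis in many tissues. It had 155, 166 and 163 CPM in BNPMT, 129, 112 and 117 CPM in SEN and 122, 121 and 122 CPM in NC. BNPMT libraries were above all others, and the SEN range included the NC range. The log2 change in SEN against NC was 0.43 ± 0.06 with TMM (SE, adjusted p = 2.58e-05) but -0.03 with total counts alone (adjusted p = 0.703). In BNPMT against SEN it was -0.07 ± 0.06 with TMM (adjusted p = 0.299, 95% interval -0.21 to 0.06) but 0.43 with total counts alone (adjusted p = 1.12e-05), and it was called lower, at -0.36, with each library's trend with gene length taken out (adjusted p = 3.97e-07), so its direction there depends on the scaling. In BNPMT against NC it was 0.36 ± 0.06 (adjusted p = 0.000369), and 0.07 without the length trend (adjusted p = 0.175). At 1457 bases, a length worked out from the deposited counts and FPKM, it is the shortest of the 10 genes.

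Tgfb2, the isoform best known from heart and eye development, had 43.5, 38.9 and 40.8 CPM in BNPMT, 27.7, 30.1 and 30.6 CPM in SEN and 54, 56.4 and 58.7 CPM in NC. The groups did not overlap, with NC the highest. It fell by 0.48 on the log2 scale in SEN against NC with TMM (SE 0.06, adjusted p = 9.27e-06) and fell by 0.94 with total counts alone. It fell by 0.51 in BNPMT against NC (SE 0.06, adjusted p = 2.71e-05). In BNPMT against SEN the log2 change was -0.02 ± 0.06 with TMM (adjusted p = 0.744, 95% interval -0.16 to 0.11) but 0.48 with total counts alone (adjusted p = 1.42e-05).

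The isoforms' shares of their summed FPKM do not change with a single factor per library, such as TMM. Taking out the length trend, which differs by gene, can change them and was not done for the shares. Tgfb3 made up 48.1% ± 1.16 of the sum in BNPMT, 25% ± 1.08 in SEN and 63.6% ± 0.149 in NC (SD, n = 3 each). Tgfb1 made up 48.2% ± 1.4, 69.7% ± 1.57 and 31.9% ± 0.0496 in the same groups. Tgfb2 stayed the smallest part, at 3.71% ± 0.241 in BNPMT, 5.22% ± 0.497 in SEN and 4.47% ± 0.196 in NC. The summed FPKM was 229.6 ± 2.03 in BNPMT, 117.6 ± 5.75 in SEN and 261.8 ± 0.955 in NC, and divided by the TMM factors it was 202.1 ± 4.12, 146.6 ± 7.97 and 238.6 ± 0.811 in the same groups. Tgfb1 was thus the main TGF-beta transcript per length in SEN and Tgfb3 in NC, while both were at nearly equal levels in BNPMT.

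Bmp2 and Bmp4, which encode ligands with strong bone- and cartilage-inducing activity, had opposite patterns. Bmp2 had 7.25, 8.8 and 7.93 CPM in BNPMT, 58, 51.9 and 58.1 CPM in SEN and 6.23, 4.99 and 7.28 CPM in NC. SEN libraries were far above the others, and BNPMT and NC overlapped. Bmp2 was 3.64 ± 0.12 higher in SEN than in NC (log2, SE; adjusted p = 6.09e-12) and fell by 3.31 in BNPMT against SEN (SE 0.12, adjusted p = 1.06e-11). In BNPMT against NC the log2 change was 0.32 ± 0.13 (adjusted p = 0.0474), a call that was lost under 11 of 20 alternatives, with adjusted p from 0.0115 to 0.225; without NC 2 it was 0.18 and without BNPMT 2 it was 0.24, both not called.

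Bmp4 had 72.8, 71.3 and 75.1 CPM in BNPMT, 20.4, 21.4 and 21.2 CPM in SEN and 70.4, 72.6 and 72.1 CPM in NC. All SEN libraries were lower than all others, and BNPMT overlapped NC. Bmp4 fell by 1.32 on the log2 scale in SEN against NC (SE 0.06, adjusted p = 6.91e-11) and was 1.3 ± 0.06 higher in BNPMT than in SEN (log2, SE; adjusted p = 7.24e-11). In BNPMT against NC it was -0.02 ± 0.05 with TMM (adjusted p = 0.747, 95% interval -0.13 to 0.09) and 0.03 with total counts alone.

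Gdf5 and Gdf6 encode ligands known for joint formation, and variants near human GDF5 are associated with osteoarthritis and disc degeneration. Gdf5 had 14.4, 16.9 and 17.1 CPM in BNPMT, 0.443, 0.737 and 0.254 CPM in SEN and 7.56, 6.77 and 8.02 CPM in NC. The SEN values rest on 17, 23 and 9 counts, and the groups did not overlap, with BNPMT the highest. Gdf5 fell by 3.53 in SEN against NC (log2, SE 0.22, adjusted p = 5.26e-09) with TMM, and CPM per total count was 15.6 times less. It was 4.6 ± 0.21 higher in BNPMT than in SEN (log2, SE; adjusted p = 1.62e-10) and 1.07 ± 0.14 higher in BNPMT than in NC (adjusted p = 4.71e-05). Tests on log2(FPKM + 1) understate the changes of so low a gene, at -1.83 in SEN against NC and 2.76 in BNPMT against SEN.

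Gdf6 was the lowest gene of the set in BNPMT and NC. It had 1.24, 0.798 and 0.882 CPM in BNPMT, 0.886, 0.961 and 1.27 CPM in SEN and 1.1, 1.26 and 1.07 CPM in NC, and all 3 groups overlapped. It was not called in SEN against NC, with a log2 change of 0.31 ± 0.25 with TMM (adjusted p = 0.277, 95% interval -0.23 to 0.86) and -0.14 with total counts alone. It was not called in BNPMT against NC either (-0.28 ± 0.25, adjusted p = 0.373, 95% interval -0.82 to 0.26). Against SEN it was called lower in BNPMT, at -0.59 ± 0.26 (adjusted p = 0.0478), but the call was lost under 13 of 20 alternatives, with adjusted p from 0.00857 to 0.763, among them total counts alone (-0.09) and leaving out SEN 3 (-0.42) or BNPMT 2 (-0.47).

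The 4 BMP and GDF genes summed to 36.9 ± 1.04 FPKM in BNPMT, 29.5 ± 1.18 FPKM in SEN and 32 ± 0.673 FPKM in NC (SD, n = 3 each), but their order depends on the scaling: divided by the TMM factors, the sums were 32.5 ± 1.14 FPKM in BNPMT, 36.7 ± 1.54 FPKM in SEN and 29.1 ± 0.556 FPKM in NC. The makeup of the sum, which a single factor per library does not change, differed. The length trend was not taken out of it. Bmp4 made up 70.7% ± 1.58 of it in BNPMT, 25.5% ± 1.47 in SEN and 80.1% ± 1.72 in NC. Bmp2 made up 8.14% ± 0.75 in BNPMT, 71.5% ± 1.83 in SEN and 7.24% ± 1.23 in NC. Gdf5 made up 19.5% ± 1.39 in BNPMT, 0.734% ± 0.402 in SEN and 10.4% ± 0.738 in NC. Bmp2 took the place of Bmp4 as the main transcript of the 4 in SEN libraries, and the groups were apart by more than their spread for Bmp4 and Gdf5, and for Bmp2 between SEN and both others.

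**Figure D2:**
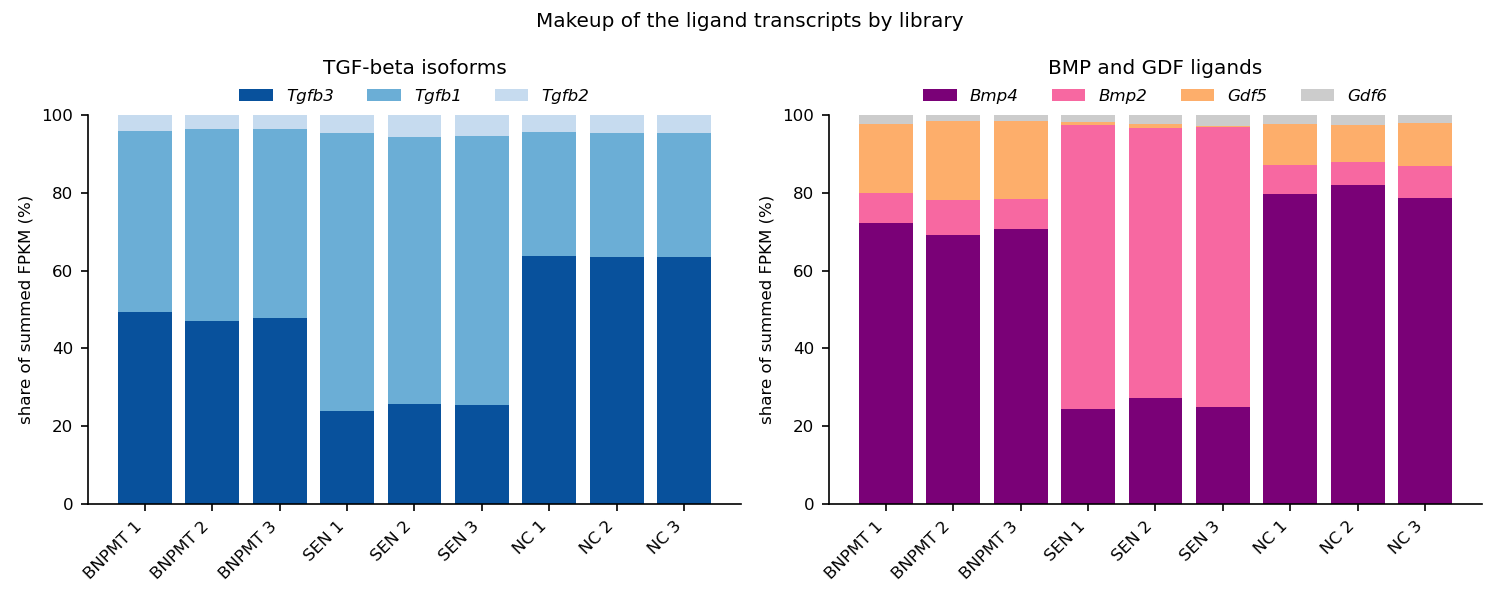
Share of the summed FPKM (y axis, percent, from 0 to 100) of the 3 TGF-beta isoform genes (one panel) and of Bmp2, Bmp4, Gdf5 and Gdf6 (the other panel) in each library, with BNPMT, SEN and NC libraries along the x axis. Bmp2 takes 69.5% to 73.1% of the BMP and GDF sum in SEN libraries and 5.94% to 8.996% in the others.

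Inhba encodes the beta A subunit, of which a pair forms activin A, a ligand also known as a secreted factor of senescent cells in other tissues. It had 113, 94.3 and 93.7 CPM in BNPMT, 390.0, 527 and 476 CPM in SEN and 212, 213 and 194 CPM in NC. The groups did not overlap, SEN was the highest and BNPMT the lowest, and SEN 1 was lower than the other SEN libraries. Inhba was 1.62 ± 0.1 higher in SEN than in NC (log2, SE; adjusted p = 2.81e-09). It fell by 2.72 in BNPMT against SEN (SE 0.1, adjusted p = 1.81e-11), and it fell by 1.09 in BNPMT against NC (SE 0.1, adjusted p = 1.92e-06), so that BNPMT lay below the control.

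Grem1, the BMP antagonist, had 499, 450.5 and 462 CPM in BNPMT, 119.6, 126 and 132 CPM in SEN and 127, 128 and 134 CPM in NC. All BNPMT libraries were over 3 times as high as any other, and SEN overlapped NC. Grem1 was 1.4 ± 0.06 higher in BNPMT than in SEN (log2, SE; adjusted p = 3.61e-11) and 1.81 ± 0.06 higher in BNPMT than in NC (adjusted p = 1.63e-10). In SEN against NC the log2 change was 0.41 ± 0.06 with TMM (adjusted p = 1.17e-05) but -0.04 with total counts alone (adjusted p = 0.516). Relative to the summed FPKM of the 4 BMP and GDF genes, Grem1 stood at 3.35 ± 0.256 in BNPMT, 1.12 ± 0.0654 in SEN and 1.06 ± 0.0111 in NC (SD, n = 3 each).

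Fst, the activin antagonist, had 48.3, 42.6 and 48.1 CPM in BNPMT, 39.1, 34.6 and 39.2 CPM in SEN and 31, 29.8 and 31 CPM in NC. In CPM the 3 groups did not overlap and BNPMT was the highest. Fst was 0.75 ± 0.07 higher in SEN than in NC with TMM (log2, SE; adjusted p = 3.02e-07) and 0.3 higher with total counts alone (adjusted p = 0.00168). It was 0.55 ± 0.07 higher in BNPMT than in NC (adjusted p = 3.42e-05). In BNPMT against SEN it was -0.2 ± 0.07 with TMM (adjusted p = 0.015) but 0.3 with total counts alone (adjusted p = 0.00138), so its direction there depends on the scaling, and the TMM call was lost with no filter on low counts and without SEN 1, without SEN 3 or without BNPMT 2. With the length trend taken out it was -0.37 (adjusted p = 4.42e-05). The FPKM of Inhba over that of Fst was 0.982 ± 0.0889 in BNPMT, 5.65 ± 1.19 in SEN and 3.06 ± 0.206 in NC (SD, n = 3 each), with no overlap between groups. A single factor per library does not change this ratio, but taking out the length trend can. In BNPMT against SEN that moved Inhba from -2.72 to -2.52 and Fst from -0.2 to -0.37. A non-coding gene that overlaps Fst had 0 to 15 counts per library.

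**Figure D3:**
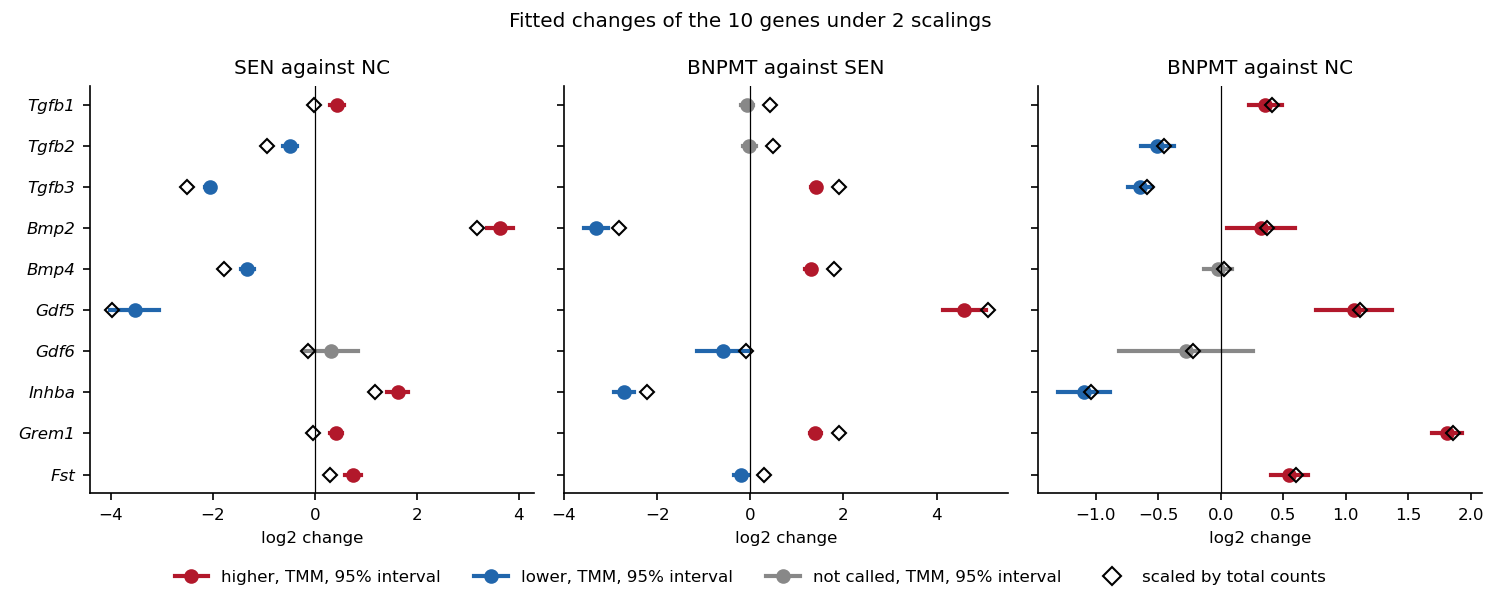
Log2 change of each of the 10 genes (x axis) in BNPMT and SEN comparisons, as edgeR estimates with TMM and 95% intervals (filled points) and with total counts alone (open diamonds). Tgfb1, Grem1 and Gdf6 turn sign between the scalings in SEN against NC, and Tgfb1, Tgfb2 and Fst in BNPMT against SEN.

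Ordered by mean FPKM within groups, the genes ran in BNPMT from Grem1 (123.5), Tgfb1 (110.7) and Tgfb3 (110.4) through Bmp4 (26.1), Fst (15.9), Inhba (15.6), Tgfb2 (8.52) and Gdf5 (7.19) to Bmp2 (3.01) and Gdf6 (0.618). Of these neighbours, Tgfb1 and Tgfb3 overlapped in their libraries, as did Fst and Inhba. In SEN the order was Tgfb1 (82), Inhba (72.4), Grem1 (33.1), Tgfb3 (29.4), Bmp2 (21.1), Fst (12.9), Bmp4 (7.5), Tgfb2 (6.12), Gdf6 (0.66) and Gdf5 (0.213), with overlap between Tgfb1 and Inhba only. In NC it was Tgfb3 (166.6), Tgfb1 (83.5), Grem1 (34), Inhba (32.2), Bmp4 (25.6), Tgfb2 (11.7), Fst (10.5), Gdf5 (3.32), Bmp2 (2.32) and Gdf6 (0.727), and Grem1 and Inhba were close but did not overlap. Tgfb1 ranked 1 or 2 in each group, and Gdf6 ranked 9 or 10.

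Genes with the most similar pattern were sought among 10182 tested genes with a mean of 5 CPM or more, by the root mean square difference of TMM-scaled log2 values over the 9 libraries, each gene centred on its own mean. For Bmp2 these were Nfkbia, an inhibitor of NF-kappaB, at 0.1 and Bag3, a co-chaperone, at 0.15, beside a range of 3.98 in Bmp2 itself. The nearest to Tgfb3 was Aldh18a1, an enzyme of proline synthesis, at 0.08 beside a range of 2.08. For Inhba they were Col14a1 and Tfcp2l1, both at 0.1 of a range of 2.99, and for Bmp4 Slc35b4 and Bms1, both at 0.05 of a range of 1.37. For Grem1 they were Ptges, the inducible prostaglandin E synthase, at 0.17 and Pygl, a glycogen phosphorylase, at 0.19, of a range of 1.91. Nearest to Gdf5 were Oma1, a mitochondrial protease, at 0.44 and Krt7 at 0.52, of a range of 5.36. Gdf5 itself had only 17, 23 and 9 counts in the SEN libraries, and its scatter there adds to these distances. The gene nearest to Tgfb1 was Ube2r2. Nearest to Tgfb2 were Casp12 and Sephs1, to Gdf6 Sh3bgrl2 and Ptprm, and to Fst Pfkp and Rbm4b. Within the set, Tgfb1 and Fst were the closest pair, at 0.15 beside ranges of 0.55 and 0.85. Tgfb3 and Bmp4 were the next, at 0.32 beside ranges of 2.08 and 1.37. The distance is not scaled to the range, so genes that move little come out close.

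The other genes of the pathway were counted in 7 lists, chosen by role. With TMM, the shares of all genes to set beside these counts were 37.6% higher and 38.5% lower in SEN against NC. They were 40.7% higher and 39.9% lower in BNPMT against SEN, and 26.3% higher and 26.5% lower in BNPMT against NC. Log2 changes below are with TMM, and total counts alone move them by the shift given above. In SEN against NC that shift brought the changes of Gdf11, Bmp5, Tgfbr1, Smad1 and Ltbp3 to 0.69, 0.43, 0.55, 0.42 and 0.7, and those of Gdf10, Acvrl1, Furin and Id1 to -1.31, -1.18, -0.67 and -0.66, with the same direction. In BNPMT against SEN it brought Gdf11, Bmp5, Tgfbr1, Smad1, Tgif1 and Ltbp3 to -0.23, -0.55, -0.95, -0.48, -0.78 and -0.76, all still lower, and Pcsk5 was at -1.14 with the length trend taken out. In SEN against NC, the other superfamily ligands had 8 genes higher and 5 lower of 14 tested, with a median log2 change of 1.01. Gdf15, a stress-induced ligand, had 8.42 ± 0.756 CPM in BNPMT, 104 ± 9.76 CPM in SEN and 6.05 ± 0.841 CPM in NC (SD, n = 3 each). It was 4.55 ± 0.11 higher in SEN than in NC (log2, SE; adjusted p = 2.69e-13) and fell by 4.13 in BNPMT against SEN (SE 0.11, adjusted p = 4.45e-13). Gdf11 and Bmp5 were likewise higher in SEN than in NC, by 1.14 and 0.89, and lower in BNPMT than in SEN, whereas Gdf10 fell by 0.86 in SEN and was higher in BNPMT than in SEN. The list had 5 genes higher and 7 lower in BNPMT against SEN, with a median of -0.54, and in BNPMT against NC 4 higher and 3 lower, with a median of 0.24.

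Receptors and co-receptors had 5 genes higher and 8 lower of 16 tested in SEN against NC (median log2 change -0.33), and 3 higher and 11 lower with total counts alone. They had 6 higher and 6 lower in BNPMT against SEN (median -0.1), but 11 higher and 3 lower with a median of 0.41 with total counts alone, where 57.3% and 25.8% of all genes were called. Against NC they had 1 higher in BNPMT and 8 lower (median -0.28), and 4 higher and 5 lower with the length trend taken out. Acvr1b, the type I activin receptor, had 18.2 ± 2.3 CPM in BNPMT, 3.18 ± 0.499 CPM in SEN and 15.8 ± 0.308 CPM in NC (SD, n = 3 each), lowest in SEN, where Inhba was highest. It fell by 1.87 in SEN (SE 0.12, adjusted p = 6.64e-09) and was 2.02 ± 0.12 higher in BNPMT than in SEN (adjusted p = 2.34e-09). Tgfbr1, the type I TGF-beta receptor, was 1 ± 0.11 higher in SEN than in NC (log2, SE; adjusted p = 1.45e-06) and fell by 1.45 in BNPMT against SEN. The BMP co-receptor Rgma and the type I receptor Acvrl1 were lower in SEN than in NC, with log2 changes of -1.57 and -0.73. Bmpr2, the type II BMP receptor, was at -0.16 in SEN against NC with TMM (adjusted p = 0.17), at -0.61 with total counts alone (adjusted p = 0.000113) and at -0.2 without the length trend (adjusted p = 0.00858). It fell by 0.41 in BNPMT against SEN with TMM, but was at 0.09 with total counts alone and at 0.03 with the length trend taken out, and not called in either.

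Of the 8 SMAD genes, 3 were higher and 5 lower in SEN against NC (median log2 change -0.15). With DESeq2 size factors 3 were higher and 3 lower there, where 39.8% of all genes were higher and 36.2% lower. Between BNPMT and SEN 2 were higher in BNPMT and 5 lower (median -0.21), but 5 higher and 3 lower with total counts alone (median 0.29) and 4 higher and 3 lower with the length trend taken out. Against NC, 1 was higher in BNPMT and 6 lower (median -0.27), and without the length trend 2 were higher and 2 lower. The inhibitory SMADs parted: Smad7, which blocks both arms, had 33.7 ± 1.17 CPM in BNPMT, 125 ± 3.58 CPM in SEN and 42.2 ± 2.51 CPM in NC, and Smad6, which blocks mainly the BMP arm, had 39.4 ± 1.44, 7.87 ± 0.383 and 29.4 ± 0.447 CPM in the same groups (SD, n = 3 each). Smad7 was 2.02 ± 0.06 higher in SEN than in NC (adjusted p = 1.95e-12), and Smad6 fell by 1.45 there (SE 0.07, adjusted p = 4.06e-10). Smad7 fell by 2.4 in BNPMT against SEN, and Smad6 was 1.82 higher. Smad1 was 0.88 higher in SEN than in NC, and Smad9 fell by 1.65.

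Other antagonists and inhibitors had 12 genes higher and 3 lower of 19 tested in SEN against NC (median log2 change 0.72), where 37.6% and 38.5% of all genes were called. With total counts alone 9 were higher and 7 lower, where 24.5% and 56.9% of all genes were called. In BNPMT against SEN 2 were higher and 13 lower (median -0.62), where 40.7% and 39.9% of all genes were called. With total counts alone 8 were higher and 9 lower there, where 57.3% and 25.8% of all genes were called. In BNPMT against NC 4 were higher and 9 lower (median -0.29), where 26.3% and 26.5% of all genes were called. Skil, a SMAD corepressor, Bambi, a decoy receptor, and Tgif1, another corepressor, were higher in SEN than in NC by 2.27, 2.03 and 1.47, and lower in BNPMT than in SEN, with log2 changes of -2.75, -1.92 and -1.28. Dand5, a secreted antagonist of the DAN family like gremlin, had 24 counts in BNPMT, 2590 counts in SEN and 4 counts in NC over the 3 libraries of each group, which is 24.7 ± 1.88 CPM in SEN. No fold is given for it because of the few counts in NC.

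Genes of latency, matrix storage and activation had 8 higher and 8 lower of 19 tested in SEN against NC (median log2 change -0.04), and 5 higher and 11 lower in BNPMT against SEN (median -0.61), or 7 higher and 9 lower there with total counts alone. Against NC, 0 were higher in BNPMT and 10 lower by edgeR's test (median -0.43), where 26.3% of all genes were called higher and 26.5% lower. The count higher there was 0 at an unadjusted p under 0.05 and 0 with DESeq2's Wald test, but 4 with the length trend taken out. Of all genes, 25.9% were called higher with the Wald test and 23.5% with the length trend taken out. Dcn, the proteoglycan decorin that binds TGF-beta, Pcsk5, a proprotein convertase, and Ltbp3, a latent TGF-beta binding protein, were higher in SEN than in NC by 1.79, 1.79 and 1.15, and lower in BNPMT than in SEN, with log2 changes of -1.88, -1.73 and -1.26. Emilin1, a matrix protein that limits processing of pro-TGF-beta, fell by 1.75 in SEN and was 1.64 higher in BNPMT than in SEN. Furin, the convertase that cleaves pro-TGF-beta, was at -0.22 in SEN against NC with TMM (adjusted p = 0.0116), but at -0.11 and not called without the length trend (adjusted p = 0.064). It was not called in BNPMT against SEN, at -0.05 with TMM, but was at 0.45 and called with total counts alone, and at -0.17 and called without SEN 1 and BNPMT 1.

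Genes known to be induced by TGF-beta in other cells had 7 higher and 7 lower of 15 tested in SEN against NC, with a median log2 change of 0.07, whereas total counts alone gave 4 higher, 9 lower and a median of -0.38, where 24.5% of all genes were higher and 56.9% lower. Ccn2 (connective tissue growth factor) and Acta2 (smooth muscle actin) were lower in SEN than in NC, with log2 changes of -1.89 and -2.16, whereas Klf10, an early TGF-beta response gene, and Skil and Smad7, given above, were higher, Klf10 by 2.57. In BNPMT against SEN the list had 7 higher and 7 lower (median 0.08), or 8 higher and 5 lower with total counts alone and 5 higher and 8 lower without the length trend, with Ccn2 and Acta2 higher by 1.59 and 1.05 whereas Klf10 fell by 2.78. In BNPMT against NC it had 3 higher and 11 lower (median -0.42). Acta2 also counts among the smooth muscle markers, whose sum was lowest in SEN.

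Genes induced by BMP in other cells had 6 higher and 7 lower of 14 tested in SEN against NC (median log2 change -0.21), 6 higher and 6 lower in BNPMT against SEN (median -0.24 with TMM, but 0.26 with total counts alone), and 2 higher and 5 lower in BNPMT against NC (median -0.1), where 1 was higher and 6 lower with the length trend taken out. Atoh8, a transcription factor, had 40.9 ± 1.38 CPM in BNPMT, 2.25 ± 0.0648 CPM in SEN and 38.1 ± 0.786 CPM in NC (SD, n = 3 each), and fell by 3.62 in SEN (SE 0.08, adjusted p = 1.36e-13). Id2 was 1.71 higher in SEN than in NC and fell by 1.69 in BNPMT against SEN. Id1, the best known BMP response gene, fell by 0.21 in SEN (adjusted p = 0.0267). Its change in BNPMT against SEN was 0.32 with TMM (adjusted p = 0.0023), 0.82 with total counts alone (adjusted p = 2.19e-07) and 0.02 without the length trend (adjusted p = 0.691). Members of this list therefore moved in both directions in each comparison, and Smad7, Bambi, Smad6 and Smad9 stand in it as well as in lists above.

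**Figure D4:**
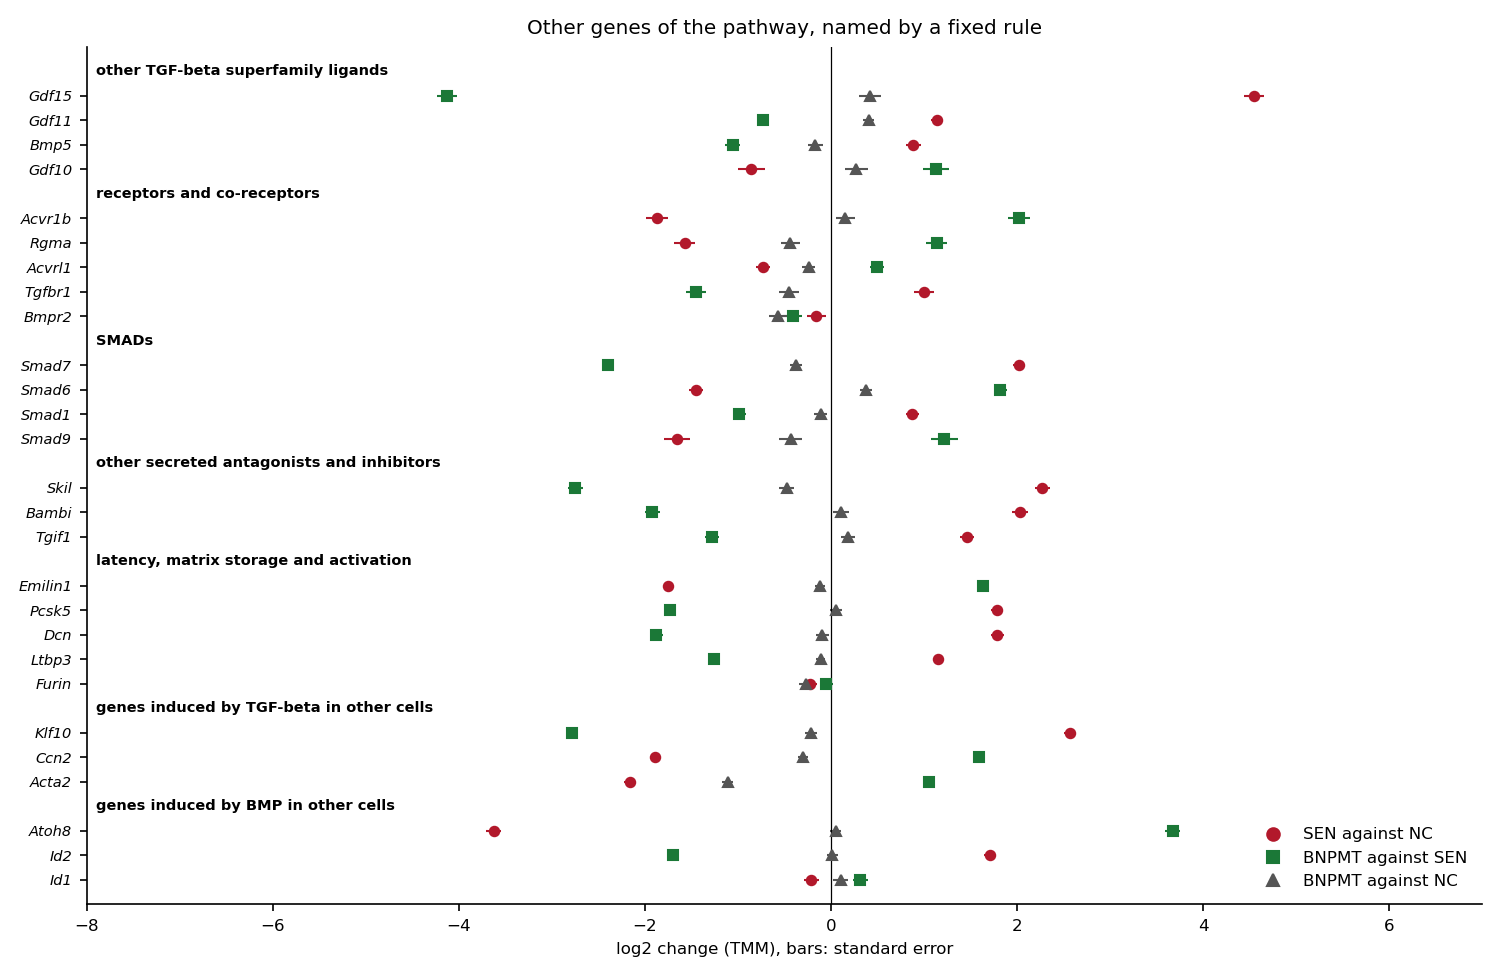
Log2 change with TMM (x axis) and standard error (bars) of the named pathway genes outside the set, by list, in SEN against NC (red circles), BNPMT against SEN (green squares) and BNPMT against NC (grey triangles). For most of them the change in SEN against NC and that in BNPMT against SEN lie on opposite sides of 0. These comparisons share the SEN libraries. Most of the genes were chosen by their adjusted p in SEN against NC, so such opposite signs are partly built in. Dand5 is not drawn because of its few counts in NC.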

How the data were processed

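RNA of the 9 rat libraries was extracted with TRIzol and made into poly(A) libraries with a VAHTS Universal V6 kit, per the labels. The build mRatBN7.2 and the tools HTSeq, HISAT2 and fastp stand in the submitters' processing notes without roles, order or versions. Which annotation and strand setting were used for counting is not given in the sources used here. Overlapping or antisense genes can therefore share reads. In RefSeq, on a build other than that of the counts, a snoRNA gene overlaps Tgfb2 and a lncRNA gene overlaps Bmp4. Neither is among the deposited genes, and whether reads were shared there was not tested. The authors deposited whole-number counts per gene and FPKM. Gene lengths were worked out from the deposited counts, FPKM and totals, a single length per gene, and not taken from an annotation. With these lengths the deposited FPKM values equal counts divided by length and total count (largest relative difference 7.77e-16). The single-sample files of FPKM were not used.

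Genes were kept with edgeR's filterByExpr (14956 of 22324) and tested by the quasi-likelihood F test of edgeR 4.0.16 (R 4.3.3), with TMM scaling, on all 9 libraries in 3 groups, with Benjamini-Hochberg adjustment over all genes tested and a threshold of 0.05. Adjusted p-values are from that test unless another tool is named, all tests are two-sided, and intervals are 95%. The code was tested on simulated data. Alternatives used DESeq2 1.42.0, limma 3.58.1, other scalings, filters and libraries. A count of 3 is worth 0.0715 to 0.0961 CPM. No 2 libraries were duplicates.

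The members and lists were chosen with earlier results of these data known. Apart from the 10 genes, those named were up to 4 called genes per list with the smallest adjusted p in SEN against NC and a mean of 5 CPM or more, a set always named that included Furin, Bmpr2, Tgfbr1, Smad7, Id1 and Ccn2, and the 2 genes most alike to each member. Of the genes so chosen, 2 are not reported here. RefSeq windows on GRCr8 were matched by gene ID. Protein sequences were not used here.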

Additional observations from a re-analysis of the deposited data

How the results depend on the processing

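Over 20 alternatives, 544 of 600 log2 changes of the 10 genes kept their direction and side of the threshold, 29 were no longer called, 1 was newly called and 26 turned sign. The cause of these differences was not tested. Total counts alone and limma on log2 FPKM, with a pseudocount of 1 and of 0.1, each gave 3 genes higher in SEN against NC. In BNPMT against SEN each gave 7 higher and 2 lower. Of all genes, 24.5%, 24.4% and 24.6% were called higher in SEN against NC under these settings, in that order. In BNPMT against SEN, 57.3%, 56.7% and 57.2% were called higher and 25.8%, 25.3% and 25.6% lower. In that order of settings, the changes that turned sign in SEN against NC were -0.0251, -0.0275 and -0.0279 for Tgfb1, -0.14, -0.0592 and -0.132 for Gdf6 and -0.0416, -0.0409 and -0.042 for Grem1. In BNPMT against SEN they were 0.43, 0.43 and 0.43 for Tgfb1, 0.48, 0.42 and 0.47 for Tgfb2 and 0.30, 0.28 and 0.30 for Fst, and in BNPMT against NC 0.0279, 0.0267 and 0.0276 for Bmp4. Tgfb2 in BNPMT against SEN was also 0.0323 with the length trend taken out and 0.0343 with no filter, and ran from -0.056 (without SEN 1) to 0.0186 (without BNPMT 2, and 0.005 without SEN 3) with 1 library left out. Tgfb1 was 0.0332 there without SEN 1 and BNPMT 1. With no filter on low counts, 2 genes were lower in BNPMT against SEN, where 31.3% of 22324 genes were called lower. With the length trend taken out 5 were lower in BNPMT against SEN, where 41.6% of all genes were. The same setting gave 3 higher in BNPMT against NC, where 23.5% of all genes were. Leaving out 1 library at a time gave 2 to 4 genes lower in BNPMT against SEN and 4 to 5 higher in BNPMT against NC. The counts of 5 higher and 4 lower in SEN against NC stayed. So did 4 higher in BNPMT against SEN and 3 lower in BNPMT against NC. The shares of all genes called in these fits ran from 36.1% to 38.9% higher and 36.3% to 39.6% lower in SEN against NC. They ran from 38.9% to 40.4% higher and 38.3% to 40.5% lower in BNPMT against SEN. In BNPMT against NC they ran from 21.3% to 27.8% higher and 21.8% to 28.2% lower. Of 840 counts of pathway lists, 804 were within 1.5 times of that reported.

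No label says whether the replicate numbers pair the libraries. The correlation of same-numbered deviations ran from -0.24 to 0.06. This cannot decide it, because there are only 3 libraries per group and their deviations also carry the trends with gene length. With the replicate block, 5 genes were higher and 4 lower in SEN against NC, where 36.9% and 37.6% of all genes were called. In BNPMT against SEN 4 were higher and 3 lower, where 39.9% and 39.2% of all genes were called. In BNPMT against NC 4 were higher and 3 lower, where 24.4% and 24.8% of all genes were called. Depth limits Gdf6 and the SEN values of Gdf5 most.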
